A study of Mus musculus with 2 samples.

Results

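Ccl2, Ccl7, Ccl8 and Ccl12 encode 4 secreted CC chemokines, and Ccr2 encodes the receptor through which monocytes answer several of them. These 5 genes, of 32285 features in the count tables, were followed across a lung section that carried breast cancer metastases and a section of control lung. They were picked by symbol because their levels in and around the metastases were already known from these same sections, so every level, ratio and rank by zone below is a description, with no test. The metastatic section came from a mouse whose mammary fat pad had been injected with 4T1 cells, a mouse mammary tumour line that spreads to the lung by itself. Per the study's methods such mice were female Balb/c animals of 6 to 8 weeks at injection, with lungs taken 21 to 23 days later. The control section came from a lung labelled as having no treatment, whose age is not given. Each condition was 1 section of 1 lung, so the section and the condition cannot be told apart, and spots within a section are not replicates. Both tissues were measured with Visium, in which mRNA from a tissue section is caught on spots that each cover several cells. All intervals below are 95% intervals and cover counting error alone.

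Monocytes leave the bone marrow and enter inflamed tissue along gradients of CCR2 ligands, and in the lung they give rise to macrophages. CCL2 is the best known of these ligands, CCL7 and the mouse protein CCL12 also bind CCR2, and mouse CCL8 is known mainly as a ligand of CCR8. In mouse models of breast cancer, CCL2 made by tumour and stromal cells is known to draw CCR2-bearing monocytes to lung metastases.

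The 4 ligand genes lay side by side on the forward strand of chromosome 11 in GENCODE M21 (GRCm38, the mm10 assembly named in the submitters' processing notes), each with 3 exons in its coding transcript. Ccl2 (ENSMUSG00000035385) was at chr11:82035571-82037453, Ccl7 (ENSMUSG00000035373) at chr11:82045712-82047525, Ccl12 (ENSMUSG00000035352) at chr11:82101845-82103400 and Ccl8 (ENSMUSG00000009185) at chr11:82115185-82116799. The whole cluster spanned 81229 bases, with Ccl11 as the only other gene lying between its ends without overlap, in the gap of 54319 bases between Ccl7 and Ccl12. Ccr2 (ENSMUSG00000049103) was on chromosome 9 at chr9:124101950-124113557, forward strand. Gm17268, on the opposite strand, overlapped Ccl2 and had 0 counts in either section. None of the 31-base runs of the 4 ligands' transcripts occurred in the transcript of another gene, so their counts could be kept apart, whereas 3.41% of the runs of Ccr2's transcripts did.

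The stretch just upstream of a gene's start is shown for Ccl8 and Ccl12, the neighbours whose levels across the section are compared below. RefSeq sequences (GRCm38.p6) were matched for 3 of the 5 genes, Ccl8, Ccl12 and Ccr2. The 250 bases before the start were searched for runs of 8 bases that Ccl8 and Ccl12 shared at positions within 10 bases of each other, and 3 were found after the sequences had been seen. They are in capitals in the forward-strand windows of Ccl8 (chr11:82114935-82115184) and Ccl12 (chr11:82101595-82101844).
Ccl8: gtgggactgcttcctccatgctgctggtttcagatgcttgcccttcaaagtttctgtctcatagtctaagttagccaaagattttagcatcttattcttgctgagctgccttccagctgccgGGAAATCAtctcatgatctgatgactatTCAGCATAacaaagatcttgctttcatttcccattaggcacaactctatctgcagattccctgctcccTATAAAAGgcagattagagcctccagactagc
Ccl12: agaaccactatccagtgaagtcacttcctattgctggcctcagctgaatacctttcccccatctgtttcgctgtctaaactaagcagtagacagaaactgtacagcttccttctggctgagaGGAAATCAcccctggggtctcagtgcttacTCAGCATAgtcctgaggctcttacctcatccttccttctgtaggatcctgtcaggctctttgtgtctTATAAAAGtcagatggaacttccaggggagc
The shared runs were GGAAATCA, at position -128 from the start in both windows, TCAGCATA, at -100 in Ccl8 and -98 in Ccl12, and TATAAAAG, which holds the TATA box letters, at -32 and -31. On either strand they were found in 0.983%, 0.481% and 1.51% of 32851 such windows, and none was in the window of Ccr2. That window, taken by the RefSeq start, was chr9:124101933-124102182, and most of it lay within the GENCODE span of Ccr2 given above. Over the whole windows, laid side by side without gaps, 36.0% of positions held the same base. A match of letters is a description and not a binding site.

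Levels are counts of unique molecules summed over a set of spots, per 10000 molecules of all genes in those spots (CP10k). The core was placed by Csn3, Etv4 and Mmp3, 3 genes that mark the tumour here, as spots above a threshold of their mean log level that touched in groups of at least 3. This gave 64 core spots in 3 tumour areas of 57, 4 and 3 spots. The 5 spots just above the threshold had 1.39 CP10k of Ccl2 and the 5 just below it 1.42. Margin was defined as spots within 200 µm of the core (85 spots), intermediate as over 200 to 500 µm (147) and far as over 500 µm (814, the farthest at 2330 µm). Csn3, 1 of the genes used, had 102 counts in the core, 3 in the margin, 3 in the far zone and 0 in the control. The area of 3 spots held no count of Csn3. Of 9 tumour genes not used for the placing, 2 (Spp1 and Fgfr1) were at least 2-fold higher in the core than in the far zone. Of all genes with at least 50 counts in these zones together, 20.7% were. Among the 9, 3 that lung epithelium also makes (Epcam, Krt7 and Cdh1) were at 0.5 of the far level or less. The metastatic section had 1110 spots and 14657881 counts, the control section 1888 spots and 20329126 counts, and the median spot had from 9644 counts in the control to 21820 in the core. Scgb1a1, a club cell product that alone made up 22.9% of far counts and 0.244% of core counts, takes up room in the total, so other genes shifted against it. The median gene stood at a log2 ratio of 0.39 for margin over far, 0.18 for core over far and -0.16 for far over control. The control section alone held cardiac muscle, with 59539 counts of 6 cardiac muscle genes against 72 in the far zone.

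By zone, with the 3 areas pooled, all 4 ligands were highest in the core, lower in the margin, lower again farther out and lowest in control lung. For Ccl7, Ccl8 and Ccl12 the intervals of core and margin overlapped. Around the largest area alone, the intermediate zone was not below the margin for Ccl2, Ccl7 and Ccl8. Ccl2, the classical monocyte attractant, had 2.65 CP10k in the core (interval 2.39 to 2.94), 1.81 in the margin (1.56 to 2.09), 0.842 in the intermediate zone, 0.146 in the far zone (0.124 to 0.171) and 0.0113 in control lung (0.00717 to 0.0170). In counts of molecules, these were 365, 187, 155, 152 and 23. No neighbours in this order had overlapping intervals. Fewer cells that express a gene and less RNA per cell cannot be told apart in such spots. Its margin level was 12.4 times its far level (9.93 to 15.4), its core level 18.2 times (14.99 to 22.1), and its margin level 0.681 times its core level (0.568 to 0.815).

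Ccl7, the neighbour of Ccl2 on the chromosome, had the steepest profile with distance in the pooled zones. It had 1.66 CP10k in the core, 1.34 in the margin, 0.543 in the intermediate zone, 0.0663 in the far zone (69 molecules in 814 spots) and 0.0113 in control lung (23 molecules). The intervals of core (1.46 to 1.89) and margin (1.13 to 1.59) overlapped, and the other neighbours in the order did not. Its margin level was 20.3 times its far level (15.1 to 27.4), which placed it at rank 1 of 11519 genes with at least 50 counts in both zones together, where Ccl2 was at rank 6, Ccl12 at 17, Ccl8 at 337 and Ccr2 at 376.

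Ccl12, a CCR2 ligand found in the mouse, had a profile between those of Ccl2 and Ccl8. Its level was 1.85 CP10k in the core, 1.45 in the margin, 0.565 in the intermediate zone, 0.147 in the far zone and 0.0148 in control lung. The margin over far ratio was 9.86 (7.82 to 12.4), the core over far ratio 12.6 (10.2 to 15.4) and the margin over core ratio 0.785 (0.637 to 0.965). Its far level was the same as that of Ccl2 within counting error, with 153 and 152 molecules, although in the core Ccl2 had 1.44 times as many (1.22 to 1.69).

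Ccl8 differed from the other ligands in how far it reached. It was at 2.93 CP10k in the core (2.65 to 3.23), 2.75 in the margin (2.44 to 3.09), 1.60 in the intermediate zone, 0.714 in the far zone (0.664 to 0.767) and 0.0354 in control lung (0.0277 to 0.0446). Core and margin overlapped. Its margin over far ratio of 3.86 (3.35 to 4.43) lay below the intervals of Ccl2, Ccl7 and Ccl12, while its far over control ratio of 20.2 (15.8 to 26.0) lay above the values of Ccl2 at 12.9 (8.29 to 21.0), Ccl12 at 9.96 (6.70 to 15.3) and Ccl7 at 5.86 (3.61 to 9.85), overlapping with the interval of Ccl2. In the far zone 743 molecules of Ccl8 were counted, against 152 of Ccl2, 153 of Ccl12 and 69 of Ccl7.

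**Figure D1:**
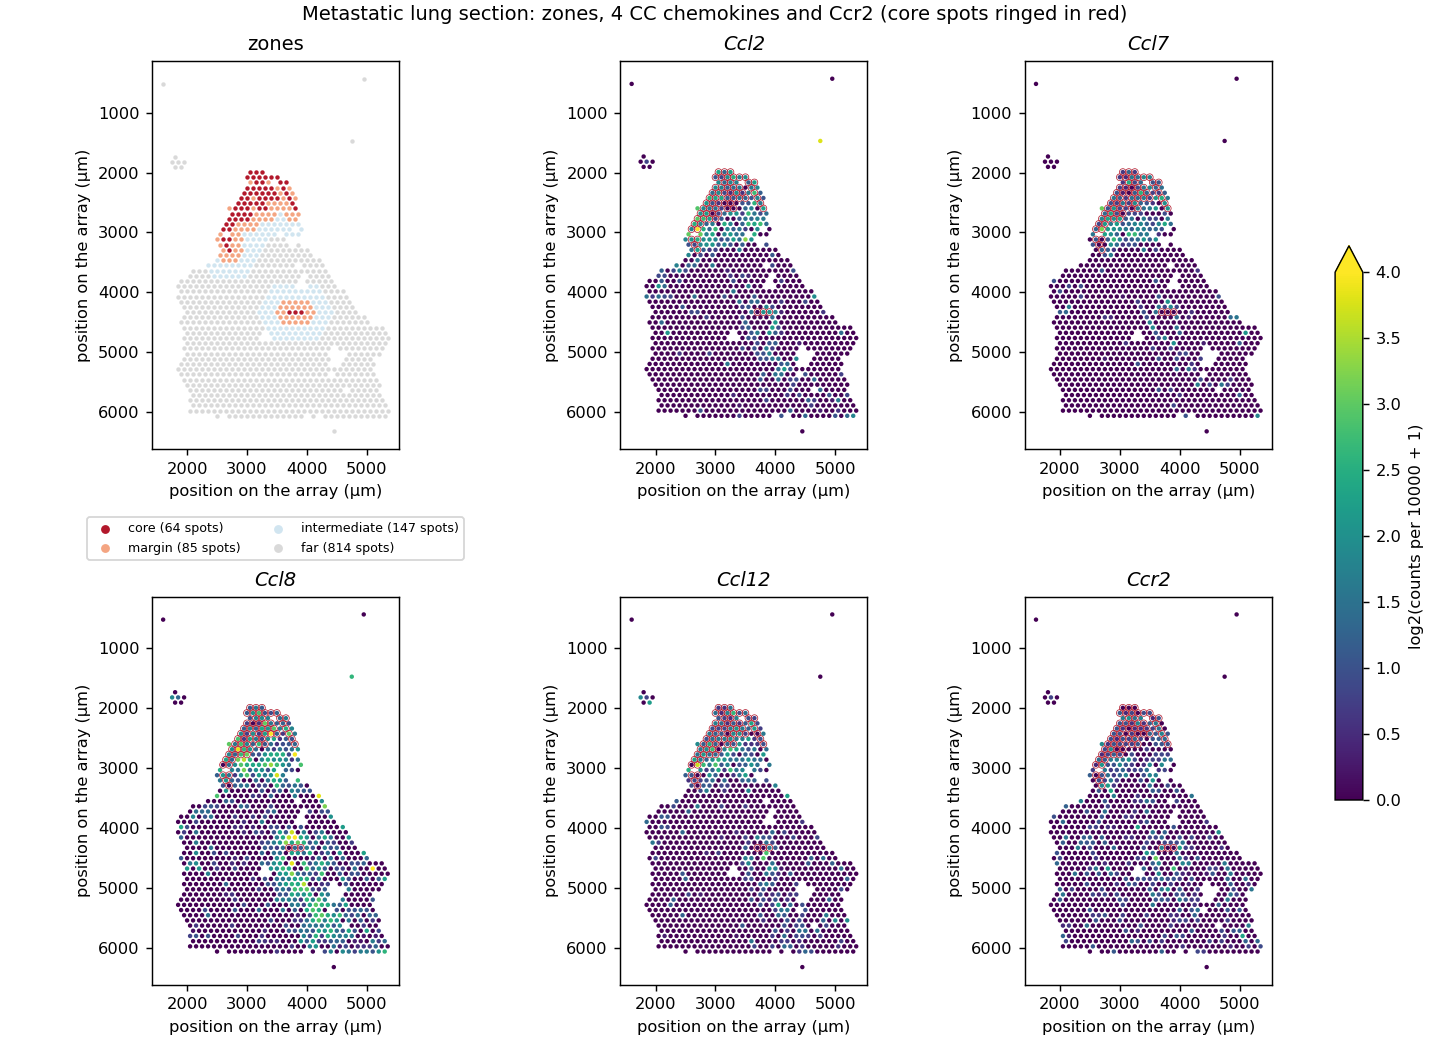
Spots of the metastatic section at their positions on the array (µm on both axes), coloured by zone in the first panel and by log2(CP10k + 1) of each gene in the others, with core spots ringed in red and colours capped at 4. Ccl2, Ccl7 and Ccl12 were bright around the tumour area at the top, while Ccl8 also ran as a band through the far zone at the lower right.

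Ccr2, the receptor, followed the ligands into the metastases but with a smaller span. It had 0.858 CP10k in the core (0.710 to 1.03), 0.879 in the margin (0.708 to 1.08), 0.435 in the intermediate zone (0.345 to 0.541), 0.235 in the far zone (0.207 to 0.267) and 0.164 in control lung (0.147 to 0.183). Core and margin did not differ beyond counting error, with a ratio of 1.03 (0.771 to 1.36). Margin over far was 3.74 (2.90 to 4.77), close to that of Ccl8, but far over control was 1.43 (1.21 to 1.69), below the interval of every ligand. Control lung thus held 334 molecules of Ccr2 and 148 of the 4 ligands together, and the far zone 245 and 1117.

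Past 2-fold, the members were 5 of 5 for margin over far, 5 of 5 for core over far, 0 of 5 for margin over core and 4 of 5 for far over control, with Ccr2 as the exception in the last. Among all genes with at least 50 counts, 18.2%, 20.7%, 8.55% and 1.16% passed in the same comparisons. These contrasts were known when the genes were chosen, so the shares are given for scale and nothing is read from them. The direction of margin over core was not the same in each setting. With the core cut to 4 touching spots, most of the usual core counted as margin or farther. Those 4 spots held each of the 3 tumour genes, at a summed level above that of any control spot. Margin over core was then 1.12 for Ccl2 (0.672 to 2.00, 17 core molecules) and 2.63 for Ccl12 (1.17 to 7.35, 6 core molecules). Margin over far was 5.15 for Ccl7 and 4.65 for Ccl2.

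**Figure D2:**
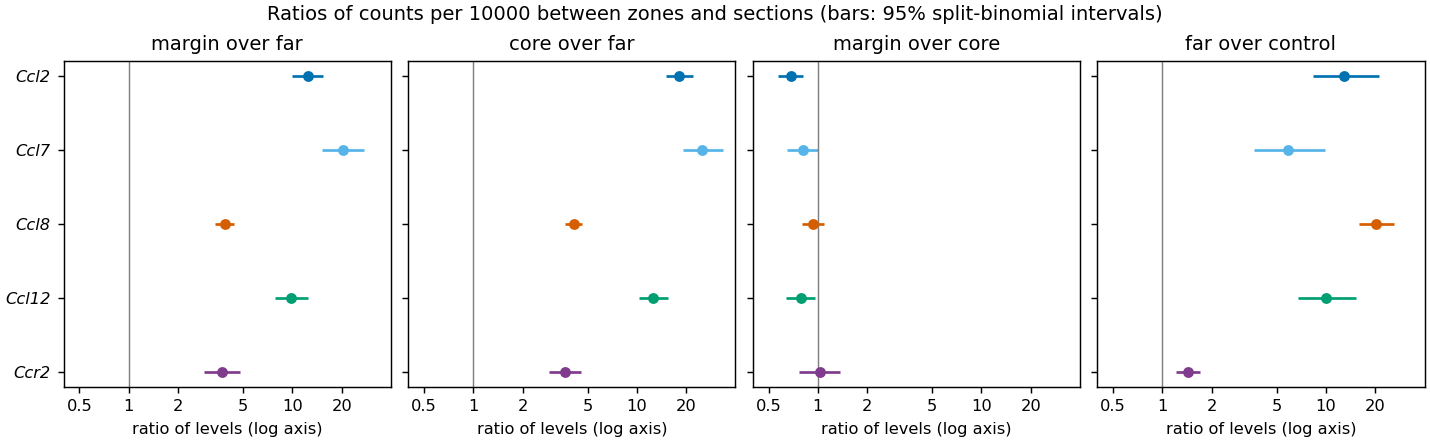
Ratios of CP10k (log axis) for the 5 genes in 4 comparisons, with 95% intervals from the split of counts and a grey line at 1. Ccl7 had the highest ratio to the far zone and Ccl8 the highest ratio of far zone to control.

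By share of spots with at least 1 molecule, the core was nearly filled. Ccl8 was seen in 93.8% of core spots, Ccl2 in 90.6%, Ccl12 in 87.5%, Ccl7 in 85.9% and Ccr2 in 81.3%. In the far zone these shares were 36.2%, 12.8%, 14.3%, 6.39% and 23.2%, and in control lung 3.39%, 1.11%, 1.54%, 0.953% and 14.8%. Core spots were deeper, so each spot was also thinned to 5000 molecules, which left out 2 of 64 core, 8 of 85 margin, 58 of 814 far and 362 of 1888 control spots. After thinning, Ccl8 was seen in 62.9% of core and 63.6% of margin spots, Ccl2 in 59.7% and 54.5%, and Ccr2 in 25.8% and 39.0%. In the thinned far zone Ccl8 was in 22.2% of spots, Ccr2 in 12.7% and Ccl2 in 5.69%. The richest core spots held 41 molecules of Ccl8 and 40 of Ccl2, and no control spot held over 5 molecules of any member.

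In rings around the core, the 4 ligands parted beyond 500 µm. Most far spots were nearest to the 3-spot area without Csn3, and the rings were not recomputed without that area. Ccl2 went from 2.22 CP10k within 100 µm of the core to 0.722 at 300 to 400 µm, 0.218 at 500 to 700 µm and 0.0729 beyond 1500 µm. Ccl7 went from 1.47 to 0.460, 0.102 and 0.0174, the last from 5 molecules in 225 spots. Both were thus lower in each ring beyond 400 µm than in the one before, down to the edge of the section, though neighbouring rings often overlapped in their intervals.

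Ccl8 and Ccl12 were level at mid distance. Ccl8 was at 0.866 CP10k at 500 to 700 µm, 0.759 at 700 to 1000 µm and 0.813 at 1000 to 1500 µm, before 0.455 beyond. Ccl12 was between 0.142 and 0.173 in the same 3 rings and at 0.115 beyond 1500 µm. A band of Ccl8-rich far spots described below ran from 529 to 1572 µm, and its part in these levels was not tested. Ccr2 went from 0.948 within 100 µm to 0.326 at 400 to 500 µm, lay between 0.238 and 0.298 from 500 to 1500 µm, and reached 0.177 (0.132 to 0.233) beyond, where its interval overlapped that of control lung. In that last ring Ccl2, Ccl8 and Ccl12 were still above control beyond their intervals, while those of Ccl7 (0.00564 to 0.0405 and 0.00717 to 0.0170) overlapped.

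**Figure D3:**
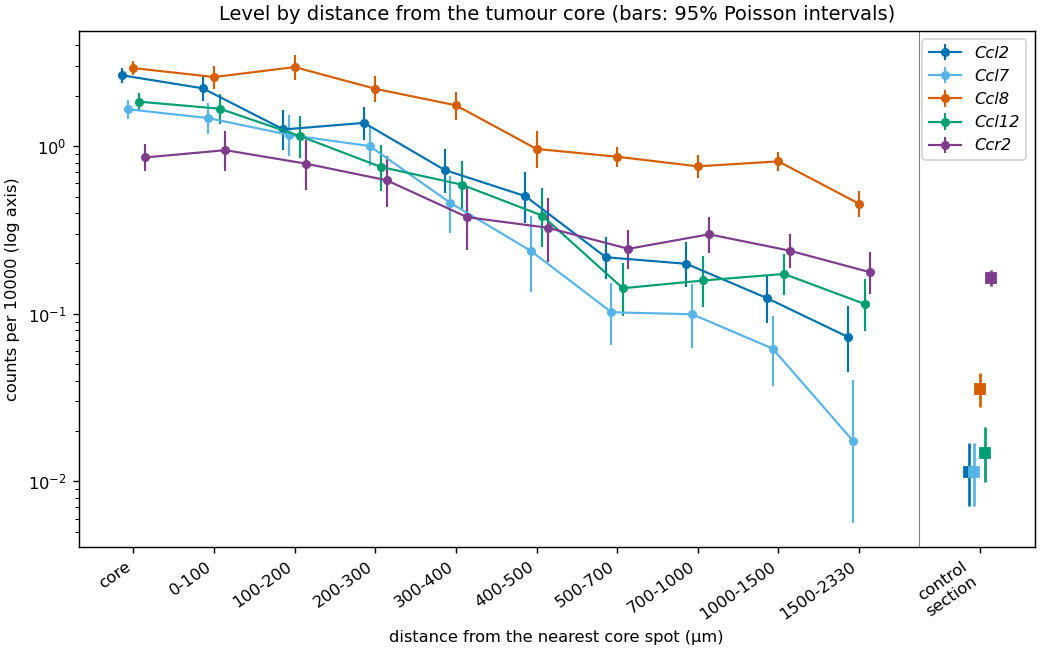
CP10k on a log axis by distance from the nearest core spot (µm), with squares for control lung and 95% Poisson intervals as bars. Ccl2 and Ccl7 were lower in each ring beyond 400 µm than in the ring before, whereas Ccl8 and Ccl12 were level from 500 to 1500 µm. For most far spots the nearest core spot was in the 3-spot area without Csn3.

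With the tumour areas pooled, the make-up of the ligand pool therefore shifted with distance. Of the 814 far spots, 655 lay around the area without Csn3. There Ccl8 and Ccl2 had 93 and 17 molecules in the margin and 641 and 103 in the far zone. Around the largest area they had 154 and 106, then 63 and 27, and around the 4-spot area 38 and 64, then 39 and 22. How much of the shift came from this mix of areas was not tested. Ccl8 made up 32.2% (29.6 to 34.9) of the 1251 ligand molecules in the core, 37.5% in the margin, 45.1% in the intermediate zone and 66.5% (63.7 to 69.3) of the 1117 in the far zone. Ccl2 went from 29.2% to 13.6% and Ccl7 from 18.3% to 6.18% between core and far zone. For each molecule of Ccl2 there were 1.104 of Ccl8 in the core (0.956 to 1.28) and 4.89 in the far zone (4.10 to 5.86), and for each of Ccl7 1.76 and 10.8. In control lung, with 148 ligand molecules in all, Ccl8 made up 48.6% (40.4 to 57.0).

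**Figure D4:**
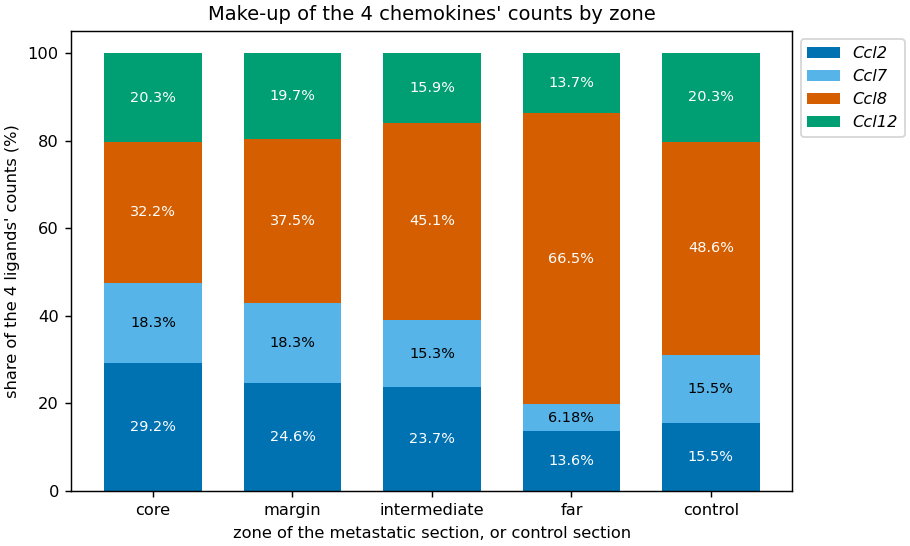
Share of each ligand (%) in the summed molecules of Ccl2, Ccl7, Ccl8 and Ccl12 in the 4 zones and in control lung. With the tumour areas pooled, the share of Ccl8 was 32.2% in the core and 66.5% in the far zone.

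Where the molecules lay in the section told the same difference in another way. The core held 42.5% of all Ccl2, 42.6% of all Ccl7 and 38.4% of all Ccl12 molecules of the section, but 23.3% of Ccl8 and 22.1% of Ccr2, with 9.39% of the molecules of all genes. The far zone held 43.0% of Ccl8 and 45.9% of Ccr2, with 71.0% of the molecules of all genes. Of the 56 spots richest in each gene, 32 for Ccl2, 33 for Ccl7 and 32 for Ccl12 were core spots, against 23 for Ccl8 and 23 for Ccr2. This ranking used molecules without division by the total, with ties going to the deeper spot. Core spots were deeper, with a median of 21820 molecules against 10916 in the far zone, and the part of depth was not tested. Far spots were 18 of the 56 for Ccl8 and at most 3 for each of the other ligands. Of their 56 richest spots, Ccl2 and Ccl7 shared 35, Ccl7 and Ccl12 33, and Ccl2 and Ccl8 18.

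The tumour areas were not alike. Around the largest area, the margin had 1.92 CP10k of Ccl2, 1.63 of Ccl7, 2.78 of Ccl8, 1.88 of Ccl12 and 0.868 of Ccr2. Its intermediate zone of 30 spots was as rich, at 2.504 for Ccl2 and 3.30 for Ccl8. The margin of the 4-spot area had 2.59 of Ccl2 (2.00 to 3.31) and 1.54 of Ccl8 (1.09 to 2.11), with 64 and 38 molecules and intervals that only just overlapped.

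The margin of the 3-spot area, the area without Csn3, had the pair the other way round. Ccl8 was at 3.96 CP10k (3.20 to 4.86, 93 molecules in 26 spots), while Ccl2 was at 0.725 (0.422 to 1.16), Ccl7 at 0.469 and Ccl12 at 0.682. Ccr2, at 0.895, was as high as at the other areas. With this area left out of the core, an alternative added after the data were seen, the margin over far ratio of Ccl8 was 2.90, and no ratio of a member moved by over 1.33 times. The 3 areas are places in 1 lung, and their differences were not tested.

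Most of the far spots richest in Ccl8 lay in a band. The 41 far spots richest in Ccl8, chosen by its own counts, held 5 to 18 molecules each and 42.8% of the far molecules. The 41 far spots richest in each other ligand held larger shares of its fewer far molecules, 58.6% for Ccl2, 84.1% for Ccl7 and 51.0% for Ccl12. Of the 41 spots chosen by Ccl8, 32 formed a single touching group, which ran from 529 to 1572 µm from the core. The other ligands were also high there: Ccl12 was at 0.943 CP10k in the 41 spots and 0.0979 in the other far spots (9.63 times), Ccl2 at 0.860 and 0.102 (8.43 times), and Ccl7 at 0.298 and 0.0520 (5.72 times). Ccr2 was at 0.480 and 0.220, a ratio of 2.18 (1.42 to 3.22).

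Genes of macrophages and lymphocytes were in part higher in the 41 spots, with intervals above 1 for 7 of 11 interstitial macrophage genes, 7 of 10 T and NK cell genes, 3 of 4 B cell genes and 2 of 7 dendritic cell genes. C1qb, a chain of the complement C1q complex made by tissue macrophages, was 4.39 times as high in the 41 spots as in the other far spots (3.82 to 5.03), C1qc 3.99 times and C1qa 3.81 times. Cbr2 of the same list was at 0.427 times (0.404 to 0.450), and the intervals of Folr2, Mrc1 and Lyve1 held 1. Ms4a1, a B cell surface gene, was 5.18 times as high (2.69 to 9.42, 15 molecules) and Cd3g, of the T cell receptor complex, 2.97 times. Of 9 classical monocyte genes 3 had intervals above 1, with Plac8 at 2.04 times (1.59 to 2.59) and a median of 1.46, while Ly6c2 was at 1.45 times with an interval that held 1 (0.811 to 2.42) and Hp at 0.357 times. Of 9 non-classical monocyte genes 2 had intervals above 1, Eno3 and Cx3cr1, the receptor of non-classical monocytes, with a median of 1.01 for the list. Among 9 tumour genes not used to place the core, 5 had intervals above 1, with Lcn2 at 2.03 times and Fgfr1 at 2.01 times, while Cdh1 was at 0.591 times. Top2a, a gene of dividing cells, was at 4.15 times and S100a4 at 3.59 times. The neutrophil list had 3 of 8 genes with intervals above 1 and a median of 0.922. The median of the 41 spots held 14423 molecules of all genes and the median other far spot 10741. These spots were selected by Ccl8, so the ratios of other genes are descriptions, and the part of depth or of cell mixture in them was not tested.

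Some classical monocyte genes were higher in and around the metastases than in the far zone, by less than Ccl2, Ccl7 and Ccl12. Of 9 classical monocyte genes with enough counts, 5 were at least 2-fold higher in the margin than in the far zone: Ly6c2 2.68 times (52 and 195 molecules), F13a1 2.64, Plac8 2.37, Ms4a4c 2.37 and Fn1, which many other cells make, 2.32 times. In the core Ms4a4c was 4.67 times, F13a1 4.48 times and Ly6c2 3.37 times the far level, with 5 of 9 past 2-fold, while Chil3 was at 0.372 times (0.275 to 0.493) and Hp also below 0.5. The median ratio of the 9 genes was 2.32 for margin over far, where the median of all genes was 1.31. From control lung to the far zone 1 of 10 was past 2-fold, Ifitm6 at 2.64 times, and Ly6c2 was at 1.80 times.

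The summed list moved the other way, to 0.797 for margin over far, because Hp alone, a haptoglobin gene that airway and alveolar epithelium also make, held 68.2% of its far counts and was at 0.160 times its far level in the margin. Without Hp, a choice made after the data were seen, the list was at 14.1 CP10k in the core, 13.01 in the margin, 6.01 in the far zone and 5.35 in control lung. Fn1 alone held 1385 of the 1941 core molecules and 847 of the 1346 margin molecules of this shortened list, and most of its far molecules. Of 9 non-classical monocyte genes 4 were at least 2-fold higher in the margin (Cx3cr1 3.72 times, Spn 2.49, Itgal 2.27 and Eno3 2.08), while Ace, which capillary endothelium makes, was at 0.379 times. In the core 3 of the 9 were at least 2-fold higher than in the far zone and 4 (Nr4a1, Ace, Fabp4 and Pglyrp1) were at 0.5 of it or less, with a median ratio of 0.550.

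Of 11 interstitial macrophage genes 5 were at least 2-fold higher in the margin and 7 in the core. C1qa was 2.85 times, C1qb 3.83 times, C1qc 3.94 times and Ms4a7 4.19 times as high in the margin as in the far zone. Folr2 was 8.78 times as high in the core (65 and 56 molecules) but 2.15 times in the margin. From control lung to the far zone the 3 C1q genes were at 2.16 to 2.23 times and Ms4a7 at 2.47 times. Cbr2, which club cells also make, held 78.4% of the list's far counts and was at 0.177 times its far level in the margin. In the core Apoe, the next most abundant gene of the list, and Lyve1 were also below 0.5 of the far level, at 0.418 and 0.397 times. The whole list was at 21.7 CP10k in the core and 65.5 in the far zone, and the margin was at 0.534 times the far level. Without Cbr2 and Apoe, the most abundant genes of the list in the far zone, a choice made after the data were seen, it went the other way: 16.7 CP10k in the core, 16.2 in the margin, 6.15 in the far zone and 3.65 in control lung.

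Within the far zone, over 500 µm from the core, all 4 ligands were higher in spots that also held a C1q gene. Lone spots above the tumour threshold were not counted as core. With them kept, the far zone had 558 spots in place of 814, and their part in these ratios was not tested. Ccl8 was at 4.803 times the level in the 550 spots with C1qa compared with the 264 without (3.65 to 6.42), and Ccl12 at 4.60 times, Ccl7 at 2.99 times and Ccl2 at 2.91 times. Beside C1qc, seen in 415 spots, Ccl7 was 7.55 times as high (3.46 to 19.6). Ccr2 was at 1.35 times beside C1qa (0.997 to 1.86) and 1.76 times beside C1qb (1.32 to 2.36), the lowest of the members beside these genes.

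Classical monocyte genes gave smaller differences. In the 149 far spots with Ly6c2, Ccl2 was at 2.04 times its level elsewhere in the zone (1.42 to 2.91), Ccr2 at 1.57 times (1.16 to 2.10), Ccl8 at 1.42 times, Ccl7 at 1.34 times and Ccl12 at 1.17 times, the intervals of Ccl7 and Ccl12 holding 1. Over the 9 classical genes with at least 50 spots on either side, the median ratio was 1.49 for Ccl2, 1.42 for Ccl8 and 1.38 for Ccr2. Over the 8 interstitial macrophage genes it was 2.64 for Ccl2, 2.29 for Ccl8, 2.48 for Ccl12, 2.45 for Ccl7 and 1.36 for Ccr2. Ligands thus stood higher beside macrophage genes than beside classical monocyte genes, whereas Ccr2 differed little between the lists. Across spots the values were sparse: the Pearson correlation of Ccl8 with the shortened interstitial macrophage list was 0.44 over 814 far spots, and with the shortened classical monocyte list 0.15. With the whole lists it was 0.07 and -0.07, so the relation by lists rests on the shortening, which was chosen after the data were seen. These correlations are descriptions, with all points from 1 library of uneven depth.

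**Figure D5:**
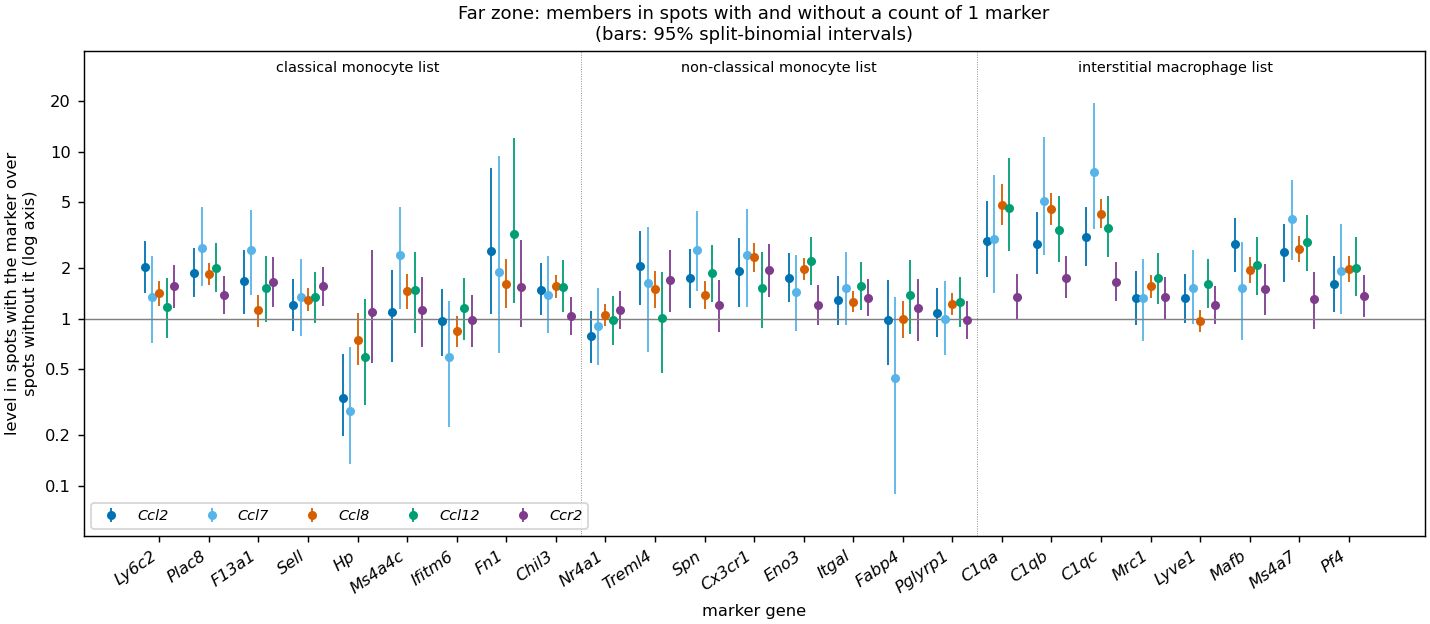
Level of each member in far spots with a molecule of 1 marker gene over its level in far spots without it (log axis), for the 25 markers with at least 50 spots on either side, with 95% intervals from the split of counts and a grey line at 1. The highest ratio of each ligand was beside C1qa or C1qc, and Ccr2 was below 2 beside each of these markers.

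Spots were also ranked by the level of each list and split into 5 equal groups, and by the shortened lists Ccr2 again had the smallest ratios. From the lowest to the highest group of far spots by interstitial macrophage genes, Ccl8 went from 0.122 to 2.23 CP10k (18.2 times, 12.8 to 26.6), Ccl12 from 0.0252 to 0.429, Ccl2 from 0.0468 to 0.450 and Ccr2 from 0.144 to 0.439 (3.05 times, 2.07 to 4.56). By classical monocyte genes Ccl8 went from 0.285 to 1.296 (4.54 times), Ccl2 from 0.0449 to 0.341 (7.60 times) and Ccr2 from 0.109 to 0.358 (3.29 times). With the abundant epithelial, blood and antibody genes left out of the totals these came to 11.3 times for Ccl8 and 1.66 times for Ccr2 by macrophage genes, and to 1.94, 4.00 and 1.59 times for Ccl8, Ccl2 and Ccr2 by monocyte genes. Most far molecules of the shortened classical list were of Fn1, which many other cells make, and its part in these ratios was not tested. With Hp kept in its list the order was the opposite: by the whole classical list Ccl8 was at 0.320 times and Ccl2 at 0.353 times in the highest group. By the whole interstitial macrophage list Ccl8 was at 1.33 times with an interval that held 1 (0.958 to 1.89) and Ccl2 at 0.556 times.

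Other immune lists and the airway also moved with the members in the far zone. From the lowest to the highest group by T and NK cell genes the ligands were between 4.18 times for Ccl8 and 4.57 times for Ccl7, and Ccr2 was at 2.37 times (1.57 to 3.63). By airway epithelial genes, with Scgb1a1 at 98.1% of their counts, Ccl8 was at 0.251 times and Ccl2 at 0.158 times in the highest group. Their part in the relation to macrophage genes was not tested.

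In control lung, where ligand molecules were few, Ccl8 and Ccr2 were higher where adventitial fibroblast genes were. By these genes, which mark the sheaths of vessels and airways, Ccl8 went from 0.0226 to 0.111 CP10k between the lowest and highest group (4.92 times, 2.51 to 10.4) and Ccr2 from 0.0959 to 0.282 (2.94 times, 2.07 to 4.22). In the far zone the same list gave 1.53 times for Ccl8 (1.19 to 1.96) and 2.42 times for Ccr2 (1.63 to 3.61). Ly6c1 alone held 39.8% of the list's counts in control lung and 68.3% in the far zone, and its part was not tested. By the shortened interstitial macrophage list Ccl8 was at 12.9 times (4.04 to 66.0, 3 and 32 molecules) and Ccr2 at 4.93 times (3.26 to 7.68), while by the shortened classical monocyte list the interval of the ratio of Ccr2 held 1 (0.855 to 1.97, 54 and 45 molecules). By T and NK cell genes Ccl8 was at 0.340 times (0.113 to 0.866, 22 and 6 molecules), opposite to the far zone of the metastatic section, though this difference between sections was not tested.

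The genes most like each member in space were taken from 10604 genes by the Pearson correlation over the 1110 spots of the metastatic section, each spot summed with its neighbours. For Ccl2 they were Top2a (0.88), Ccl7 (0.87), S100a4, Cxcl10 and Npm1, and for Ccl7 they were Ccl2, Ccl12, Npm1, Mcm6 and Cxcl10. Top2a, Mcm6 and Npm1 are genes of dividing and growing cells, and Cxcl10 is a chemokine induced by interferon. For Ccl12 they were Rps20, Rpl23, Ccl7, Rpl11 and Rps26, of which 4 are ribosomal protein genes.

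Ccl8 stood apart from these, being most like C1qb (0.84), C1qa (0.80) and C1qc (0.80), ahead of Arpc1b and Rps20. Ccr2 was less like any gene, with Cdk1 at 0.68, Tmsb10 at 0.66, Nlrc5 and Ctss at 0.65 and Mki67 at 0.65. Summing neighbours makes adjacent points overlap, and with single spots 3 of the 5 genes were shared for Ccl2 and Ccl12, 2 for Ccl8 and Ccr2 and 1 for Ccl7.

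Most other CC chemokines were higher at the margin than in the far zone as well, in part with another shape. Of 7 listed genes with enough counts, among them Cx3cl1, a CX3C chemokine, 6 were at least 2-fold higher in the margin than in the far zone. Of all genes with at least 50 counts, 18.2% were. The 6 were Ccl4 at 8.998 times, Ccl17 at 5.57, Ccl9 at 4.93, Ccl22 at 4.37, Ccl5 at 4.15 and Ccl6 at 3.39. The median of the 7, with Cx3cl1, was 4.37 times. Ccl6 and Ccl9, made by myeloid cells, were higher in the core than in the margin, like the 4 ligands, with margin over core ratios of 0.654 and 0.791. Ccl5, Ccl22 and Ccl4, products of T cells, dendritic cells and activated macrophages, were higher in the margin than in the core, at 3.10, 4.16 and 3.77 times the core level, the last from 34 and 12 molecules. From control lung to the far zone Ccl5 was at 0.462 times, where the 4 ligands were at 5.86 to 20.2 times.

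Of the other receptors, Ccr1, which binds inflammatory CC chemokines on monocytes and other myeloid cells, was 2.66 times as high in the margin as in the far zone (46 and 174 molecules). Ccr1 was already 6.29 times as high in the far zone as in control lung (174 and 54 molecules), above the 1.43 times of Ccr2. Ackr2, a scavenging receptor of CC chemokines, went the other way, at 0.537 times in the margin and 0.0598 times in the core. The neutrophil genes, a list of 9, were 11.2 times as high in the far zone as in control lung and at 0.410 times the far level in the margin, unlike the members, all of which were above their far level in the margin.

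Of 8 genes of monocyte growth and differentiation, 5 were at least 2-fold higher in the margin than in the far zone, namely Csf1, Csf2ra, Csf2rb, Il34 and Spi1, at 2.00 to 2.73 times. Csf1, the growth factor of macrophages, was at 2.65 times in the core, where it was 1 of 8 past 2-fold, Klf4 was at 0.175 times and the median of the list was 1.38. Of the genes that induce CC chemokines, Nfkb1 was at 2.17 times in the margin. Il1b, a cytokine gene of the same list, was 5.89 times as high in the far zone as in control lung but at 0.814 times in the margin.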

How the data were processed

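The deposited files held raw counts, each the number of unique molecules of a gene on a spot, for 1 control and 1 metastatic lung section. The authors made them with Space Ranger 1.3.1, with mm10 named in the submitters' processing notes, and did not normalize them. The 5 genes, the marker lists and the contrasts were chosen with earlier results of these data known.

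Python 3.11.15 was used with numpy 2.4.6, pandas 2.3.3, scipy 1.17.1 and matplotlib 3.10.9. Counts were summed over spots and divided by the total count of those spots, per 10000 (CP10k). Levels had exact Poisson 95% intervals, ratios an interval from the exact binomial split of both counts, and shares Clopper-Pearson intervals. These cover counting error only. Each spot's tumour score was the mean of log(1 + CP10k) of Csn3, Etv4 and Mmp3. Otsu's method put the threshold at 0.387, which 82 spots exceeded, and 18 of them outside groups of 3 touching spots were left out of the core. In the control section 9 spots also exceeded it. Array positions were scaled to a spacing of 100 µm. A median spot of about 10000 counts gives a gene at 1 CP10k about 1 molecule, so sums over spots were compared. The sections shared 858 spot barcodes, which are positions on the array and not cells. Genes counted for the background had at least 50 molecules in both groups together, and genes most like a member at least 100. Ccl19 and Ccl21a, whose symbols each stood for more than 1 feature, were left out of the lists. The genes named were the members, genes of the fixed lists and the 5 most like each member. Some genes of these lists are not reported here. The scripts were checked on simulated data. With 1 section per condition no p-value was computed.

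Alternatives were other placings of the core, margin and far zone, other totals, thinning, per-spot means and counts per spot. The alternatives without the 3-spot area, with shortened lists, with single markers and with 433 abundant genes left out of the totals in the comparison by 5 equal groups of spots were chosen after seeing the data.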

Additional observations from a re-analysis of the deposited data

How the results depend on the processing

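No paired analysis was possible because each condition had 1 section, and no replicate could be left out. Of the members' ratios recomputed under other settings, 147 stayed within counting error of the reported value, 65 moved beyond it and 3, all of margin over core, turned, counting only ratios whose reported interval excluded 1. Margin over core also crossed 1 in some settings for Ccl7, Ccl8 and Ccr2, whose reported intervals held 1. Margin over far, core over far and far over control kept their direction under each setting run, and all 20 ratios stayed within counting error after thinning to 5000 molecules. The interval of core over far held 1 for Ccl12 with the core of spots holding all 3 tumour genes, at 1.96 (0.716 to 4.30, 6 core molecules). It also held 1 for Ccl7 with the 2 small areas alone, at 4.90 (0.582 to 18.4, 2 core molecules). Depth limited the control section, with 23 molecules of Ccl2, and the 2 small tumour areas, with 2 molecules of Ccl7 in their 7 core spots. The causes of the changes below were not tested.

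Another core was the 4 touching spots that held each of the 3 tumour genes, at a summed level above that of any control spot. With it, most of the usual core counted as margin or farther. Margin over far was then 4.65 for Ccl2, 5.15 for Ccl7, 2.71 for Ccl8, 5.16 for Ccl12 and 2.14 for Ccr2. Core over far was 4.14 for Ccl2, 3.18 for Ccl7, 3.09 for Ccl8 and 1.96 for Ccl12. Margin over core was 1.12 for Ccl2 and 2.63 for Ccl12, both turned, 1.62 for Ccl7 and 0.540 for Ccr2. The core then held 17 molecules of Ccl2 and 6 of Ccl12, and among these ratios only the interval of Ccl12 excluded 1. Far over control was 39.0 for Ccl2, 23.9 for Ccl7, 29.4 for Ccl8, 22.2 for Ccl12 and 1.98 for Ccr2.

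With counts per spot and no division by the total, core over far was 30.5 for Ccl2, 42.2 for Ccl7, 6.90 for Ccl8, 21.1 for Ccl12 and 6.13 for Ccr2. Margin over core was 0.386, 0.457, 0.532, 0.445 and 0.581 in the same order, and far over control of Ccr2 was 1.70. With abundant genes left out of the totals, margin over far was 8.87, 14.5, 2.76, 7.07 and 2.68 and core over far 12.7, 17.5, 2.87, 8.77 and 2.55 in that order. With the mean of spots, Ccl2 was at 8.85 for margin over far and 14.4 for core over far.

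With the far zone from 1000 µm, margin over far was 18.2 for Ccl2 and 33.3 for Ccl7, core over far 26.7 and 41.2, and far over control of Ccl7 3.57. With lone tumour spots kept, core over far was 23.1 for Ccl2, 42.2 for Ccl7 and 4.75 for Ccl8, margin over core 0.542 for Ccl2, 0.553 for Ccl7, 0.792 for Ccl8 and 0.582 for Ccl12, and far over control of Ccl7 3.50. With a margin of 100 µm, margin over core of Ccl2 was 0.836. With the 70 highest tumour scores in place of the threshold, Ccl8 was at 3.01 for margin over far and 3.53 for core over far, and without the 3-spot area, a setting added after seeing the data, at 2.90 and 3.58.

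With the largest area alone, Ccl12 was at 12.8 for margin over far and 0.989 for margin over core. With the other areas alone, Ccl12 was at 6.50 for margin over far. Their core over far was 4.90 for Ccl7, 2.505 for Ccl8 and 4.42 for Ccl12. Their margin over core was 3.13 for Ccl7, 1.52 for Ccl8 and 1.47 for Ccl12, the last turned, from 2, 11 and 4 core molecules.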
